A study of Mus musculus with 3 samples.

Results

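Aquaporins are membrane channels that let water, and in some members glycerol, follow osmotic gradients across a cell layer. The 7 aquaporin genes described here, *Aqp1*, *Aqp3*, *Aqp4*, *Aqp5*, *Aqp6*, *Aqp9* and *Aqp11*, were chosen by their gene symbols among the 32285 genes in the files, and their unique molecular identifiers (UMIs, which count single captured RNA molecules) were read in every cell type. The cells came from cochleae of C57/B6 mice at postnatal day 14 (P14, 1 library) or 28 (P28, 2 libraries), with no mutation, transgene or treatment in any group. Each library pooled 14 cochleae from 7 mice, so no value belongs to 1 animal. The tissue held mainly the upper basal to apical turns and the bony wall was taken away, and cells were freed with collagenase IV before 10x Genomics 3′ sequencing. A barcode was kept as a cell when it held 200 to 6000 genes and at most 15% mitochondrial UMIs, which left 1662, 5649 and 7065 cells at P14 and in P28 replicates 1 and 2.

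Water crosses a simple epithelium best when one channel lines the apical and another the basolateral face. AQP4 is the water channel of glial end feet and, in the cochlea, of supporting cells on the basolateral side, where the dystroglycan complex holds it. AQP1 is the constitutive channel of red blood cells, many endothelia and connective tissue cells. AQP5 is the apical channel of salivary, lacrimal and airway glands. AQP3 and AQP9 also pass glycerol, AQP6 is an anion-permeable channel of intracellular vesicles, and AQP11 is a distant member found in the endoplasmic reticulum. In the cochlea, hair cells sit between the potassium-rich endolymph and the perilymph, and supporting cells around them take up the potassium that leaves them.

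The upstream DNA of *Aqp11*, the member with the most UMIs, and of *Aqp1*, which was high in other cells, is shown so that both can be compared before their levels are given. They are RefSeq sequences of GRCm38.p6, read 5′ to 3′ on each gene's own strand and ending before the first annotated base of the gene. The *Aqp11* stretch ended right beside its gene. That of *Aqp1* ended at base 55336298, short of the annotated gene start at 55336432, and the bases between were not searched. Of the 7 members, 6 had an entry. The *Aqp5* entry lay almost wholly inside the annotated gene and is not printed. Capitals mark matches, on either strand, to CAGNTG (a subset of the E-box CANNTG, the core read by basic helix-loop-helix factors) or TGGGAA (the core of sites of RBPJ, the Notch pathway's DNA-binding protein). Other forms of CANNTG were not searched and are not marked.
Aqp11 (chr7:97738290-97738497, − strand): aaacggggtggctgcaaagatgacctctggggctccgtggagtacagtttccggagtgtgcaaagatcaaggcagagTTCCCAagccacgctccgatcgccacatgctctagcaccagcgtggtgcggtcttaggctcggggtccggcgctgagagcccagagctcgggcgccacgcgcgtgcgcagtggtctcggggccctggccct
Aqp1 (chr6:55336049-55336298, + strand): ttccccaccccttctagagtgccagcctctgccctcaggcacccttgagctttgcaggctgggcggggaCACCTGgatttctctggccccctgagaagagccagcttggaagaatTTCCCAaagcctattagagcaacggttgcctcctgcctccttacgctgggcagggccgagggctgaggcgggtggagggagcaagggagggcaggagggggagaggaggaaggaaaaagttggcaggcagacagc

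The *Aqp11* stretch of 208 bases had 65.4% G or C and 1 TGGGAA, at bases 78 to 83 on the other strand, and its letters held no CAGNTG. Among all 32851 upstream stretches of that length, 18.5% held TGGGAA and 39.3% held CAGNTG. The *Aqp1* stretch of 250 bases had 62.0% G or C, 1 CAGNTG at bases 70 to 75 and 1 TGGGAA at bases 116 to 121, both on the other strand. At that length 44.8% of stretches held CAGNTG and 21.6% held TGGGAA, so all of these matches were common, and a match describes letters only.

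The genes lie apart, except for 1 pair. On GRCm38, *Aqp11* spans chr7:97724006-97738289, *Aqp1* spans chr6:55336432-55348555, *Aqp3* spans chr4:41092722-41098183 and *Aqp9* spans chr9:71110659-71168682. *Aqp4* lies on chromosome 18. *Aqp5* (chr15:99590782-99594829) and *Aqp6* (chr15:99601400-99605477) follow each other on the same strand with 6570 bases between them. The antisense gene *AC133525.2* overlaps *Aqp4*, and the pseudogene *Gm47268* and the antisense gene *Gm32511* overlap *Aqp9*. Whether the counting used strand is not given in the sources used here, so reads of these overlapping genes are uncertain.

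Of the 7 members, 4 were detected well. In all kept cells *Aqp11* had 8345 UMIs, *Aqp4* 3311, *Aqp1* 919 and *Aqp5* 639, whereas *Aqp9* had 10, *Aqp3* had 3 and *Aqp6* had 0. Cells were grouped into clusters without using any aquaporin, and clusters were named from marker genes as "-like" classes. The 16 named classes included outer hair cells (OHC-like), inner hair cells (IHC-like), Deiters' and pillar cells (DC/PC-like), inner phalangeal and border cells (IPhC/IB-like), inner sulcus, Hensen's and outer sulcus cells together (ISC/HeC/OSC-like), Reissner's membrane (RM-like) and tympanic border cells (TBC-like). OHC-like clusters carried all 8 fixed markers, with *Ocm* among the 10 leading genes of each, and no fixed marker list held an aquaporin. Levels are given in CPM, the UMIs of a gene per 1000000 summed UMIs of its class and library, with exact 95% Poisson intervals that cover counting error only. Libraries differed in quality, since 19.8% of P14 barcodes but 50.1% and 59.2% of P28 barcodes exceeded the mitochondrial limit, and pairs of libraries shared 10 to 54 called barcodes, of which 4 to 10 were kept in both.

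**Figure D1:**
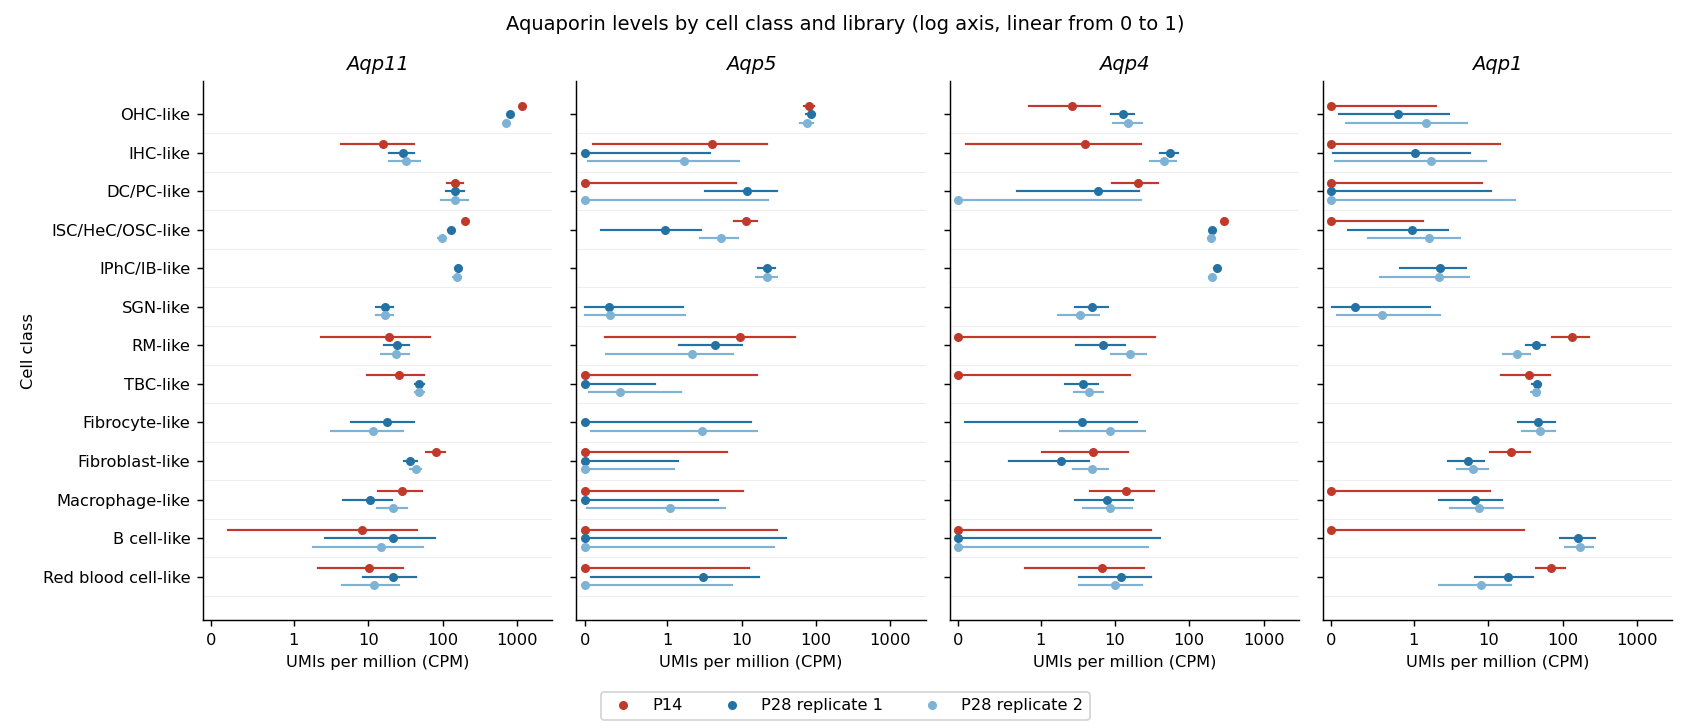
Level of each aquaporin (CPM, log axis, linear from 0 to 1) in 13 classes of cells, with 1 point per library and its exact 95% Poisson interval; P28 alone had the IPhC/IB-like, SGN-like and fibrocyte-like classes. *Aqp11* and *Aqp5* stood highest in OHC-like cells, and *Aqp4* in ISC/HeC/OSC-like and IPhC/IB-like cells. *Aqp1* stood highest in RM-like cells (133 CPM) at P14 and in B cell-like cells (mean 167) at P28, where most of its UMIs lay in few cells. Fibrocyte-like, TBC-like and RM-like cells came next at P28, whereas red blood cell-like, macrophage-like and fibroblast-like cells held means of 13.1, 7.12 and 5.79.

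Each class was compared with all other cells of the same library, 3 sums against 3. The test was the quasi-likelihood test of edgeR, with p-values adjusted by the Benjamini-Hochberg method over all genes tested and a threshold of 0.05. This was possible for 10 classes. *Aqp3*, *Aqp6* and *Aqp9* passed the filter on low counts in none of them, so 40 of the 70 pairs of gene and class were tested, of which 6 were higher, 22 lower and 12 uncalled. The P28 libraries were separate pools of mice, per the methods, so p-values measure the spread between 3 pools of mice, of which 1 was of the other age. In OHC-like cells 2 members were higher and 2 lower, where 26.1% and 30.2% of all genes tested were. In ISC/HeC/OSC-like cells the counts were 1 and 1, against 18.8% and 20.9% of all genes. RM-like cells had 1 higher and 3 lower (15.8% and 22.8% of all genes), and TBC-like cells 1 and 3 (24.6% and 30.6%). B cell-like cells had 1 higher and 2 lower (7.22% and 16.2%). In the other classes no member was higher, by edgeR or DESeq2, and apart from red blood cell-like cells none of the 4 tested had an unadjusted p under 0.05 in that direction. Lower members numbered 3 in IHC-like cells (13.8% of all genes higher, 20.6% lower), 2 in DC/PC-like cells (7.38% and 12.4%), 3 in fibroblast-like cells (13.9% and 21%) and 3 in macrophage-like cells (15.5% and 17.3%). In red blood cell-like cells no member was called by edgeR, where 0.822% of all genes were higher and 1.25% lower. DESeq2 also called 0, while at an unadjusted p under 0.05 there was 1 higher (*Aqp1*, adjusted p = 0.127, or 0.0486 without P28 replicate 2) and 2 lower (*Aqp4* and *Aqp11*).

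**Figure D2:**
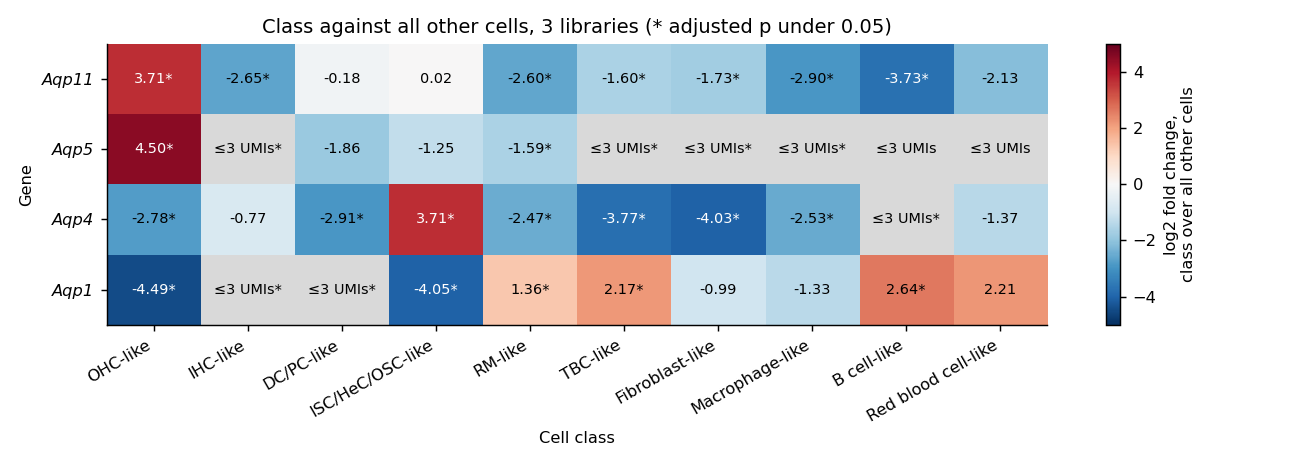
Log2 fold change of 4 aquaporins in each of 10 classes against all other cells of the same libraries (3 sums against 3); an asterisk marks an adjusted p under 0.05, and grey cells had 3 or fewer UMIs in the class, where no fold change is given. *Aqp11* and *Aqp5* were higher in OHC-like cells, *Aqp4* in ISC/HeC/OSC-like cells and *Aqp1* in RM-like, TBC-like and B cell-like cells.

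*Aqp11* was highest in OHC-like cells. They held 1165 CPM [1117–1215] at P14 and 807 [772–843] and 705 [661–750] in the P28 libraries, where all other cells held 127, 61.9 and 50.8 CPM. All 3 libraries were above, and the log2 fold change was 3.71 ± 0.17 (SE, adjusted p = 6.9e-04). By size of change it had rank 314 of 13050 genes, so many genes differed more. These cells gave 75.6%, 59.3% and 46.7% of all *Aqp11* UMIs in their libraries.

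Within the OHC-like class *Aqp11* ranged from 631 to 1193 CPM between clusters. The P14 clusters numbered 0, 13 and 16 held 1193, 1137 and 841 CPM, the last from 35 cells with an interval of 618 to 1118. The P28 cluster 26, whose cells were the deepest, held 880 and 843 CPM in replicates 1 and 2, and cluster 8 held 779 and 631. In both P28 libraries cluster 26 was thus the higher of the pair.

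Outside OHCs, *Aqp11* was at an intermediate level in the supporting classes as a whole. DC/PC-like cells held 148 CPM [115–189] at P14 and 148 and 147 at P28, and ISC/HeC/OSC-like cells held 202, 129 and 98.9. IPhC/IB-like cells, found at P28 only, held 160 and 156 CPM. Neither tested supporting class differed from all other cells (log2 fold change −0.18 ± 0.34, adjusted p = 0.790, and 0.02 ± 0.33, adjusted p = 0.975), a reference that itself contains the OHC-like cells. *Aqp11* was lower in 6 classes. IHC-like cells held 15.8, 28.9 and 32.0 CPM, a log2 fold change of −2.65 ± 0.44 (adjusted p = 0.00185), so the hair cell types lay on either side of the reference. In macrophage-like cells it was −2.90 ± 0.36 (adjusted p = 9.5e-04), and RM-like, TBC-like, fibroblast-like and B cell-like cells were the other 4. Their reference also contains the OHC-like cells. TBC-like cells held 26.1 CPM at P14 and a mean of 48.7 at P28. That mean was only a little below the P28 levels given above for all cells outside the OHC-like class. Fibroblast-like, RM-like and B cell-like cells held P28 means of 40.2, 24.0 and 18.3. No class was tested against the cells outside the OHC-like class alone. Without P28 replicate 1 the fibroblast-like call was lost (adjusted p = 0.0779), and without the P14 library ISC/HeC/OSC-like cells were called higher (0.50, adjusted p = 1.1e-05). In the order of P28 means, OHC-like cells stood apart from the next class, and IPhC/IB-like, DC/PC-like and ISC/HeC/OSC-like cells overlapped one another in turn.

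*Aqp5* was also highest in OHC-like cells. They held 80.5 CPM [68.2–94.4] at P14 and 84.6 [73.6–96.9] and 75.7 [61.9–91.7] at P28, against 6.30, 3.3 and 3.01 CPM in all other cells. The 3 values overlapped, all were above the reference, and the log2 fold change was 4.50 ± 0.27 (adjusted p = 1.0e-03, rank 190 of 13050). These UMIs were 81.2%, 74.1% and 61.4% of all *Aqp5* UMIs. The OHC-like clusters agreed within counting error in P28 replicate 1 (85.3 and 83.0 CPM) and lay at 67.4 [51.6–86.6] and 91.3 [66.3–123] in replicate 2, whose intervals overlap.

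In other cells *Aqp5* was sparse. IPhC/IB-like cells held 21.7 CPM in each P28 library, nearly all of it in 1 cluster described below, and ISC/HeC/OSC-like cells held 11.6 CPM [7.91–16.3] at P14 but 0.972 [0.2–2.84] and 5.25 [2.79–8.97] at P28. It was lower in 5 classes, each against a reference that contains the OHC-like cells. RM-like cells, which were among them, held 9.50 CPM at P14, from 1 UMI, and a mean of 3.26 at P28. These values were not clearly below the level given above for all cells outside the OHC-like class. Whether a class was lower than those cells was not tested. Fibroblast-like cells had 0 UMIs in 3 libraries, at least 27.1-fold lower than all other cells at a limit of 3 UMIs over the group (adjusted p = 0.00654). TBC-like cells had 2 UMIs, a pooled ratio of 0.0157 [0.00189–0.0569] to other cells, and IHC-like cells also 2, a ratio of 0.0925 [0.0112–0.336]. B cell-like cells had 0 UMIs too, but their few cells allow only an at least 1.35-fold lower level, and no call was made (adjusted p = 0.0537). Without P28 replicate 1 the *Aqp5* calls in IHC-like (adjusted p = 0.0757), macrophage-like (0.0594) and RM-like cells (0.197) were lost, and that in RM-like cells also without P28 replicate 2 (0.0934). Without the P14 library ISC/HeC/OSC-like cells were called lower (−1.36, adjusted p = 3.2e-04).

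The share of cells with a UMI gave the same picture at 1 depth. After 1000 UMIs were drawn from every cell that had them, *Aqp11* was found in 66.2% [60.1–71.9] of 260 OHC-like cells at P14 and in 57.9% of 363 and 45.4% of 284 at P28. In macrophage-like cells, taken as the background, the shares were 0%, 0.435% and 1.53%, from cells with median depths of 5255, 2467 and 2195 UMIs against 6865, 5251 and 3752.5 in OHC-like cells. Without the draw, 93.1%, 97.0% and 89.4% of OHC-like cells had an *Aqp11* UMI. *Aqp5* was found in 7.31%, 9.92% and 7.75% of the drawn OHC-like cells (37.5%, 43.0% and 27.5% undrawn) and in 0 of 63, 230 and 327 drawn macrophage-like cells, which allows shares of up to 4.76%, 1.30% and 0.917%. *Aqp4* was found in 25.1%, 16.6% and 17.1% of ISC/HeC/OSC-like cells (50.6%, 39.8% and 33.0% undrawn), 13.7% and 11.8% of IPhC/IB-like cells, and 1.59%, 0.435% and 1.22% of macrophage-like cells. *Aqp1* was found in 1.92%, 5.04% and 4.04% of TBC-like cells (9.23%, 16.2% and 12.5% undrawn), against 0%, 0% and 0.352% of OHC-like cells. It reached 14.8% of 27 RM-like cells at P14, and 15.7% and 14.5% of the unnamed P28 cluster 9. The cluster 9 shares came from a separate draw. In that draw the 52 TBC-like cells at P14 gave 7.69% [2.14–18.5], so low shares varied between draws. The *Aqp4* shares of OHC-like cells (0.385%, 0.275% and 1.41%) had intervals that overlapped those of macrophage-like cells in all 3 libraries.

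**Figure D3:**
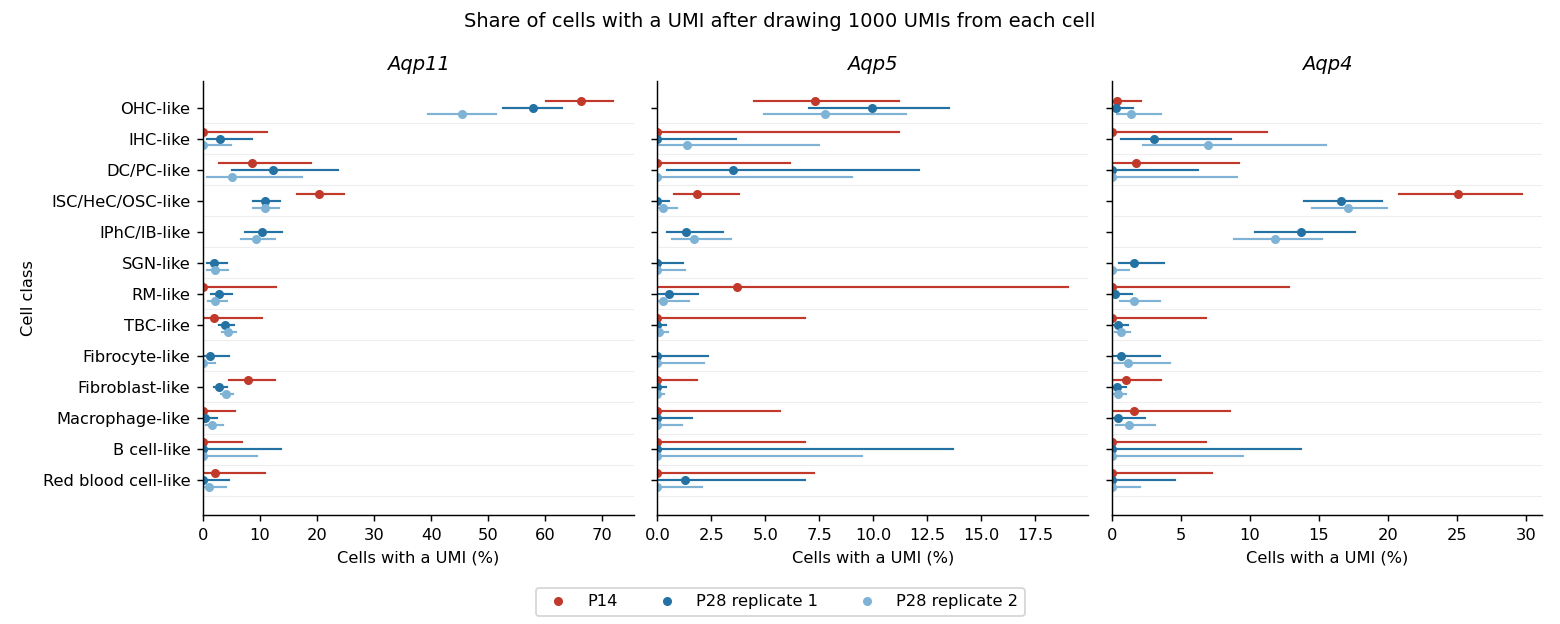
Share of cells (%) with a UMI of *Aqp11*, *Aqp5* or *Aqp4* after 1000 UMIs were drawn from each cell, by class and library, with exact 95% binomial intervals for counting error. *Aqp11* reached 45.4% to 66.2% of OHC-like cells, *Aqp5* 7.31% to 9.92%, and *Aqp4* 16.6% to 25.1% of ISC/HeC/OSC-like cells.

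*Aqp4* was high in the supporting epithelium beside the organ of Corti. ISC/HeC/OSC-like cells held 293 CPM [273–314] at P14 and 203 [188–220] and 193 [176–211] at P28, against 10.7, 36.0 and 27.3 CPM in all other cells. All 3 libraries were above, with a log2 fold change of 3.71 ± 0.45 (adjusted p = 0.00324), rank 47 of 12875 genes. At P14 this class gave 94.2% of all *Aqp4* UMIs, and at P28 44.8% and 45.7%, when IPhC/IB-like cells gave a further 43.8% and 35.6% at 234 and 203 CPM. Most of the IPhC/IB-like share came from P28 cluster 18, which gave 34.9% and 28.3% of all *Aqp4* UMIs. That cluster shared leading genes such as *Lockd* and *Pcdh17* with P14 cluster 3, an ISC/HeC/OSC-like cluster. P28 cluster 7, of the ISC/HeC/OSC-like class, shared *Lockd*, *Mia*, *Prss36* and *Epyc* with it. The split of UMIs between both classes at P28 thus depended on how cluster 18 was named. IPhC/IB-like cells formed no class at P14 and entered no test. The P28 intervals of both classes overlapped in replicate 2 and barely in replicate 1.

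*Aqp4* differed between clusters of that epithelium. Clusters are called *Lockd*-led where *Lockd*, a noncoding RNA, was among their 10 leading genes, and *Ucma*-led where *Ucma*, a secreted cartilage-matrix protein, was and *Lockd* was not. *Aqp4* was itself among the 10 leading genes of the *Lockd*-led clusters, although it was kept out of the genes used to form them. The *Lockd*-led P14 cluster 3 held 506 CPM [455–561], whereas the *Ucma*-led P14 clusters 1 and 4 held 223 and 183. The P28 clusters 7 and 18 (*Lockd*-led) held 283 and 299 CPM and 406 and 383 CPM in replicates 1 and 2. The *Ucma*-led P28 cluster 3 held 177 and 164 CPM, and cluster 23, which *Rubie* and *Fst* led, held 100 and 50.1. In each library every *Lockd*-led cluster was therefore above the *Ucma*-led ones, which is a description of clusters with no test. The other IPhC/IB-like cluster (4, led by *Slitrk6*) held only 87.4 and 72.1 CPM.

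The sums of 2 *Lockd*-led clusters held UMIs of 3 aquaporins. P14 cluster 3 (151 cells) held 40.8 CPM of *Aqp5* [27.3–58.6] and 343 of *Aqp11* [301–389] beside its *Aqp4*. P28 cluster 18 (115 and 110 cells), which the markers *Sox2*, *Gata3*, *Gjb6* and *Fabp7* named IPhC/IB-like, held 44.7 and 47.9 CPM of *Aqp5* and 281 and 317 of *Aqp11*. P28 cluster 7, with less *Lockd* RNA (566 and 456 CPM, against 854 in P14 cluster 3 and 1083 and 1296 in cluster 18), held 0 and 3.72 CPM of *Aqp5* and 133 and 112 of *Aqp11*. In cells thinned to 1000 UMIs, *Aqp4* and *Aqp5* were found in the same cell in 2 of 128 cells of P14 cluster 3 (1.56%, where independent detection gives 1.79%). In P28 cluster 18 this was so in 1 of 115 (0.870% and 1.21%) and 2 of 110 (1.82% and 1.74%). Undrawn, *Aqp4* was in 104 and *Aqp5* in 37 of the 115 cells of replicate 1, and in 89 and 30 of the 110 of replicate 2. Some cells of cluster 18 therefore held both. The undrawn 91 and 19 of 151 cells in P14 cluster 3 do not require any overlap. Detection of all 3 in the same cell was not counted. The first pair of clusters had *Aqp5* at about the level of each other, far above cluster 7. Their *Ocm*, the most abundant OHC gene, was 80.2 CPM in P14 cluster 3 and 53.8 and 60.8 in P28 cluster 18, against 33661, 17260 and 16980 in the main OHC-like clusters. In cells with no UMI of *Ocm* or *Slc26a5* the levels were 45.3, 42.8 and 47.7 CPM of *Aqp5* and 340, 274 and 314 of *Aqp11*. Without the cells of highest doublet score they were 40.8, 44.1 and 49.8 CPM of *Aqp5*. Both selections were chosen after seeing the data. Cluster 18 had median depths of 9036 and 6107.5 UMIs per cell, and P14 cluster 3 had 2508.

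**Figure D4:**
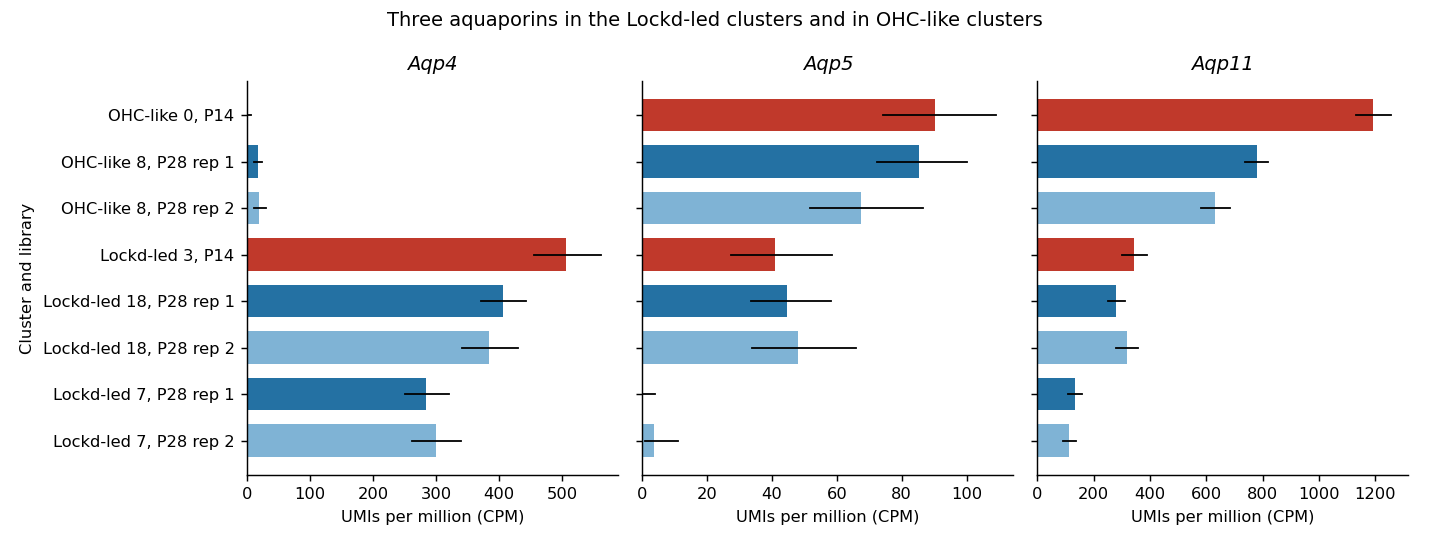
*Aqp4*, *Aqp5* and *Aqp11* (CPM, bars from 0, with exact 95% Poisson intervals) in the main OHC-like clusters and the *Lockd*-led clusters, 1 bar per cluster and library. P14 cluster 3 and P28 cluster 18 held *Aqp5* between 40.8 and 47.9 and *Aqp11* between 281 and 343, whereas P28 cluster 7 held at most 3.72 and 133.

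*Aqp4* was lower in 7 classes and uncalled in 2. The reference of each contains the ISC/HeC/OSC-like cells and, at P28, the IPhC/IB-like cells. At P14, DC/PC-like (20.2 CPM) and macrophage-like cells (14.3) were not below the level given above for all cells outside the ISC/HeC/OSC-like class. The other lower classes held less than that level at P14. Whether a class was lower than the cells outside both of these classes was not tested. OHC-like cells held 2.66, 13 and 15.1 CPM (log2 fold change −2.78 ± 0.76, adjusted p = 0.0331), a call lost without P28 replicate 1 (adjusted p = 0.0892). In the main P28 OHC-like cluster 8, levels of 16.8 and 18.8 CPM were 3.67 and 8.28 without the cells of highest doublet score. IHC-like cells held 3.96 CPM at P14 and 54.7 and 45.4 at P28, and were not called (−0.77 ± 0.51, adjusted p = 0.284), except without P28 replicate 2 (−1.39, adjusted p = 0.0136) and with at most 3000 genes per cell (−2.11, adjusted p = 0.00360). RM-like, TBC-like and fibroblast-like cells, at most 16.1 CPM in any library, were lower by 2.47, 3.77 and 4.03 on the log2 scale (SE 0.31, 0.25 and 0.36, adjusted p = 1.7e-08, 2.2e-07 and 0.00162). B cell-like cells had 0 UMIs, at least 6.98-fold lower.

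*Aqp1* was higher in cells of the mesenchymal lining and Reissner's membrane. TBC-like cells, which line the underside of the basilar membrane, held 34.8 CPM [15.0–68.5] at P14 and 45.2 [39.1–52.0] and 43.5 [37.7–49.9] at P28, and all other cells held 10.3, 11.2 and 11.4. All 3 were above (log2 fold change 2.17 ± 0.14, adjusted p = 2.3e-07, rank 317 of 13624), and these cells gave 46.4% and 48.9% of the P28 *Aqp1* UMIs. RM-like cells held 133 CPM [72.7–223] from 14 UMIs at P14 and 43.7 [32.4–57.6] and 24.6 [15.6–37.0] at P28, against 9.28, 15.9 and 17.5 (1.36 ± 0.28, adjusted p = 8.5e-05, rank 853 of 13081). Within the P28 RM-like class, cluster 5 held 58.8 and 34.6 CPM and cluster 17 held 3.22 and 3.36. Fibrocyte-like cells, at P28 only, held 46.5 and 49.3 CPM, overlapping TBC-like cells. Unnamed clusters also held *Aqp1*. P28 cluster 9, led by *Fst*, *Abcc9*, *Inmt* and *Cemip*, held 191 CPM [150–239] and 158 [121–204], and the P14 cluster 6, led by *Moxd1* and also high in *Abcc9*, held 102 [60.5–161]. Among 6 endothelial markers, P14 cluster 6 had 3 with a UMI (summed 1384 CPM) and P28 cluster 9 had 4 and 5 (866 and 714 CPM), with *Pecam1* at 0, 0 and 5.27 CPM but *Cdh5* at 221, 122 and 126. Fibrocyte markers there summed to 3522, 8982 and 9341 CPM, fibroblast markers to 10673, 2390 and 2385, and pericyte markers to 505, 27.9 and 103.

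*Aqp1* was lower in the sensory epithelium. OHC-like cells had 0, 2 and 2 UMIs (log2 fold change −4.49 ± 0.53, adjusted p = 0.00411) and ISC/HeC/OSC-like cells 0, 3 and 4 (−4.05 ± 0.56, adjusted p = 0.00444). IHC-like cells had 2 in all, a pooled ratio of 0.0643 [0.00777–0.233] to other cells. DC/PC-like cells had 0, at least 5.33-fold lower, with an adjusted p of 0.0528 without P28 replicate 2. Fibroblast-like cells (−0.99 ± 0.50, adjusted p = 0.180) and macrophage-like cells (−1.33 ± 0.50, adjusted p = 0.0791) were not called. Without the P14 library the fibroblast-like cells were called lower (−1.52, adjusted p = 2.9e-06).

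Among blood cells, most *Aqp1* UMIs lay in cells with *Alas2*, the first enzyme of heme synthesis in red cell precursors. B cell-like cells were called higher (log2 fold change 2.64 ± 0.50, adjusted p = 3.5e-06, rank 517 of 12914) from 0, 163 and 172 CPM, so 2 of 3 libraries were above the reference, and the call was lost without either P28 library (adjusted p = 0.0619 and 0.114). In the P28 B cell-like cluster, however, all 15 *Aqp1* UMIs of replicate 1 and 16 of 23 in replicate 2 lay among 5 cells of each library with a UMI of *Alas2* and none of the B cell genes *Cd79a*, *Cd79b* or *Ms4a1*. Cells with such a B cell gene and no *Alas2* had 0 *Aqp1* UMIs in 21 cells and 2 in 32, and in replicate 2 the remaining 5 UMIs lay in 1 of 3 cells with neither. Without the cells that had *Alas2*, the log2 fold change was 0.47 (adjusted p = 0.735), an alternative chosen after seeing the data. In the red blood cell-like cluster at P14, which also expressed *Top2a* and *Mki67* of dividing cells (962 and 827 CPM), all 21 *Aqp1* UMIs lay among 33 cells with *Alas2*, and the class held 70.9 CPM [43.9–108]. At P28, when *Top2a* was at 0 CPM in both red blood cell-like sums, it held 18.2 and 8 CPM, from 6 and 4 UMIs, of which 2 and 3 lay in cells with *Alas2*. The 63 and 147 cells there with *Alas2* and no B cell gene held only 1 and 3 *Aqp1* UMIs (3.54 and 7.03 CPM). In replicate 1, 4 UMIs lay in 18 cells with neither. The P28 B cell-like cluster held 424 and 418 CPM of *Top2a* and 500 and 418 of *Mki67*.

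**Figure D5:**
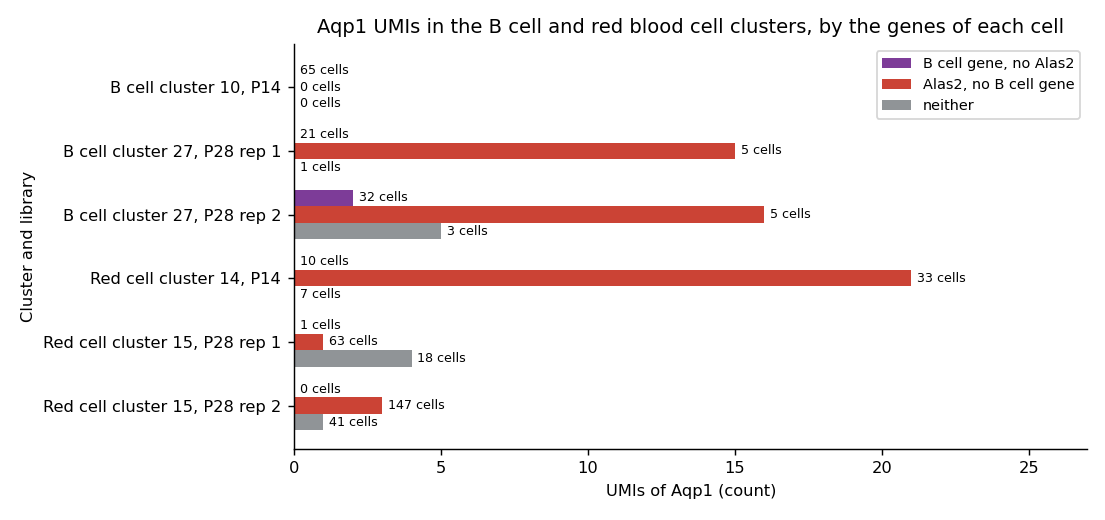
UMIs of *Aqp1* in the B cell-like and red blood cell-like clusters of each library, split by whether a cell had a B cell gene (*Cd79a*, *Cd79b* or *Ms4a1*) or *Alas2*, with the number of cells beside each bar; the 2 cells with both kinds, with 1 *Aqp1* UMI in all, are left out. Of the 38 UMIs in the P28 B cell-like cluster, 15 and 16 lay among 5 cells in each library with *Alas2* only.

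The glycerol-permeable members and AQP6 were at the limit of detection. *Aqp9* had 10 UMIs in 9 cells, of which 4 lay in B cell-like, 4 in macrophage-like and 2 in DC/PC-like cells. *Aqp3* had 3 UMIs, 1 each in B cell-like, OHC-like and TBC-like cells, all at P28. *Aqp6* had 0 UMIs in all barcodes, kept or not, which leaves room for at most 0.496, 0.150 and 0.158 CPM per library (upper Poisson limits). These genes were not detectable at this depth, which does not show that they are absent. Of 5 aquaporin genes outside the members, *Mip*, *Aqp7* and *Aqp12* had 0 UMIs, *Aqp2* had 31 and *Aqp8* had 14. None of the 5 passed the filter in any class.

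P14 had 1 library, so ages were compared without a test, by asking whether the P14 interval lay outside both P28 intervals. In OHC-like cells *Aqp11* was 1165 CPM at P14 and 756 ± 72.6 (SD, n = 2) at P28, a ratio of 1.54, with the P14 interval above both. The 2 P28 intervals did not overlap each other, so libraries of 1 age also differed. ISC/HeC/OSC-like cells (202 against 114 ± 21.5, ratio 1.77) and fibroblast-like cells (82.1 against 40.2 ± 4.83, ratio 2.04) were likewise above at P14, and the other 7 classes were not outside. Fibroblast-like cells were not above in thinned cells, nor with haemoglobin, mitochondrial and ribosomal protein genes left out of the total. By contrast *Aqp5* in OHC-like cells was 80.5 CPM at P14 and 80.2 ± 6.31 at P28, and lay outside in 0 of 10 classes. *Aqp11* in DC/PC-like cells was level too, at 148 and 147 ± 0.657 CPM.

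*Aqp4* in ISC/HeC/OSC-like cells was 293 CPM at P14 and 198 ± 7.40 at P28, a ratio of 1.48, with the P14 interval above both. This depended on which cells were counted. P28 cluster 18 shared leading genes with the P14 *Lockd*-led cluster, *Aqp4* itself among them. So did P28 cluster 7, which was already in the class. When cluster 18 was counted with the class (chosen after seeing the data), P28 values were 260 CPM [245–276] and 238 [222–256]. The P14 interval of 273 to 314 then overlapped that of replicate 1. The ratio was then 1.18 for *Aqp4* and 1.25 for *Aqp11*, whereas for *Aqp5* it went from 3.72 to 0.807. OHC-like and IHC-like cells were below at P14 for *Aqp4*, with P14 values of 2.66 and 3.96 CPM. Without the cells of highest doublet score the P28 means were 5.86 CPM in OHC-like cells, from 14.1, and 43.1 in IHC-like cells.

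*Aqp1* was above at P14 in RM-like cells (133 against 34.2 ± 13.5, ratio 3.89), red blood cell-like cells (70.9 against 13.1 ± 7.19, ratio 5.42) and fibroblast-like cells (20.5 against 5.79 ± 0.684, ratio 3.54), and below in B cell-like cells. The P14 values rest on 14, 21 and 12 UMIs. In the P28 B cell-like cluster, 5 cells per library with *Alas2* and no B cell gene held 396 and 549 CPM. Such cells of the P14 red blood cell-like cluster held 131. Cells with a B cell gene and no *Alas2* held 0 CPM [0–86.9] and 26.1 [3.16–94.3] in the P28 B cell-like cluster, and 0 [0–32.0] at P14. Ages were not compared with all *Alas2* cells counted as red blood cell-like. Of 6 alternatives, RM-like cells were above in 4, red blood cell-like cells in 3 and fibroblast-like cells in 1. RM-like cells were not above at resolution 2 or with at most 30% mitochondrial UMIs. Their P14 interval of 72.7 to 223 overlapped that of P28 RM-like cluster 5 alone in replicate 1 (58.8 [43.5–77.7]), but not in replicate 2 (34.6 [21.7–52.4]). The P14 level of fibroblast-like cells fell to between 11.9 and 12.4 CPM with at most 3000 genes, at resolution 2 or without the highest doublet scores. Haemoglobin and other red cell markers summed to 375131 CPM in the P14 red blood cell-like class and to 708466 and 633630 at P28. When haemoglobin, mitochondrial and ribosomal protein genes were left out of the total, *Aqp1* there was 151 at P14 and 61.5 on average at P28. The P14 interval was then no longer above both P28 intervals. The part of haemoglobin in the difference was not tested. In TBC-like cells the 34.8 CPM at P14 lay within the range of 44.4 ± 1.22 at P28 by its interval.

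Genes of pathways around the aquaporins were counted in the same tests. Of 8 genes of the dystroglycan complex, which anchors AQP4, 3 were higher and 0 lower in ISC/HeC/OSC-like cells, where 18.8% and 20.9% of all genes were, with a median log2 fold change of 0.39 against −0.03 over all genes tested. The higher ones were *Dmd* (dystrophin; 0.96 ± 0.18), *Utrn* (utrophin; 0.80 ± 0.15) and *Dtnb* (β-dystrobrevin; 1.22 ± 0.18), with adjusted p of 0.0112, 0.0112 and 0.00534. DESeq2 also called 0 lower in both this class and RM-like cells, and none of the 8 was lower at an unadjusted p under 0.05 in this class. RM-like cells, where *Aqp4* was lower, had 5 higher and 0 lower (median 0.61 against −0.07; 1 lower at an unadjusted p under 0.05), where 15.8% and 22.8% of all genes were called, led by *Sntb1* at 3.20 ± 0.24. OHC-like cells had 3 higher and 4 lower of the 8 (median −0.28 against −0.02), where 26.1% and 30.2% of all genes were called. *Sntb1* was at 2.73 ± 0.15 and *Dtna* at 2.10 ± 0.12, but *Sntb2* at −1.68 ± 0.20. TBC-like cells also had 3 higher and 4 lower of the 8 (median −0.30 against −0.03), where 24.6% and 30.6% of all genes were called.

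Of 10 genes of channels and transporters linked to cell volume and potassium, with *Slc12a2* and *Slc14a1* as the transporters, 9 were tested in the epithelial classes. In ISC/HeC/OSC-like cells 5 were higher and 2 lower (median 0.89 against −0.03), where 18.8% and 20.9% of all genes were. *Kcnj16*, an inward rectifier that pairs with KCNJ10, held 745, 416 and 397 CPM against 107, 117 and 86.9 in other cells (2.70 ± 0.21, adjusted p = 0.00119). *Kcnj10* (0.89 ± 0.17) and the osmosensitive channel *Trpv4* (1.71 ± 0.27) were also higher. The volume-regulated anion channel subunits split. *Lrrc8e* was higher (2.29 ± 0.30), whereas *Lrrc8b* (−1.83 ± 0.15) and *Lrrc8c* (−3.44 ± 0.24) were lower. In OHC-like cells the reverse held for those subunits, with *Lrrc8b* at 1.45 ± 0.16 and *Lrrc8c* at 1.00 ± 0.16 higher and *Lrrc8e* at −1.87 ± 0.36 lower, among 2 higher and 5 lower of 9 (median −1.26 against −0.02; 26.1% and 30.2% of all genes). TBC-like cells had 3 higher and 5 lower (median −0.43 against −0.03; 24.6% and 30.6% of all genes). *Trpv4* stood highest in RM-like cells, at 95, 63 and 63.2 CPM (2.77 ± 0.20, adjusted p = 1.1e-14).

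Of 4 glycerol metabolism genes, 3 were tested. *Gpd1l* was higher in OHC-like cells (1.91 ± 0.20, adjusted p = 0.00335), *Gpd2*, the mitochondrial glycerol-3-phosphate dehydrogenase, was higher in RM-like cells (2.13 ± 0.19, adjusted p = 1.6e-12), and glycerol kinase *Gk* was lower in ISC/HeC/OSC-like cells (−1.22 ± 0.36, adjusted p = 0.0440). *Gpd1l* (−0.41 ± 0.16) and *Gpd2* (−0.50 ± 0.15) were lower in TBC-like cells, and *Gpd2* (−0.91 ± 0.25) in macrophage-like cells. The shares of all genes called in these classes were 26.1% higher (OHC-like), 15.8% higher (RM-like), and 20.9%, 30.6% and 17.3% lower (ISC/HeC/OSC-like, TBC-like and macrophage-like).

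Genes with the most similar pattern were found by Pearson's r of log2(CPM + 10) over 41 sums of class and library, among 13982 genes. These sums share libraries and cell types, so r is a description with no p. For *Aqp11* they included *Ankrd22* (r = 0.833) and *Gm1673* (0.805), and for *Aqp5* *Grp* (0.874), *4930558C23Rik* (0.862) and *1600022D10Rik* (0.847). For *Aqp4* they were *Gprc5a* (0.884), *Inhba* (0.859) and *Epyc* (0.841), and for *Aqp1* *Cdc42ep3* (0.758), *Cox6b2* (0.758) and *Samd14* (0.721). *Epyc* was among the markers that named the classes.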

How the data were processed

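The authors deposited raw UMI counts per gene and barcode, made with Cell Ranger (5.0.1 in the file header, 6.0.1 in the submitters' processing notes, build mm10) and called as cells; no filter or normalization had been applied. Kept cells held 7432047, 24594886 and 23300859 UMIs (medians of 2475.5, 2421 and 2036 per cell), and 3 UMIs set the limit for a count of 0. From these counts, genes in at least 3 barcodes were log-normalized in Seurat 5.3.0 (R 4.3.3). P14 cells were clustered alone into 18 clusters and P28 libraries after integration into 32, on 2000 variable genes without the members and other listed genes (35 in all), with 30 components at resolution 1. A class needed 3 markers with a UMI in 5% of cells and a log2 ratio of 1 to the median of all clusters, and tie rules for names were set after clusters, but no aquaporin values, were seen. UMIs were summed per class and library, with at least 20 cells in every library for a test. edgeR 4.0.16 fitted quasi-likelihood models with TMM scaling, its expression filter and terms for library and side, and was checked on simulated data; in the OHC comparison it recovered 189 of 200 genes changed 4-fold among 13050, with 15 false calls, but 139 in the DC/PC and 92 in the B cell comparison, so uncalled pairs there weigh less. The simulated data had the same fixed spread in every class, so they do not measure power in the real sums. In the red blood cell comparison 156 were recovered, where 0.822% of real genes were called higher and 1.25% lower. The library term blocks the 2 sums of 1 library. Named genes were the members, the fixed lists and, for each member with at least 50 UMIs, the 3 genes most like it among those with at least 100. Members and lists were chosen with earlier results of these data known. Shares used cells thinned to 1000 UMIs, leaving out shallower cells, with exact intervals. Scrublet (scanpy 1.11.5) marked almost no cell as a doublet, so its calls were not used and the cells with the highest 8% of scores were left out as an alternative. Alternatives covered other cell limits (3000 genes and 15000 UMIs, 30% mitochondrial UMIs), resolution 2, DESeq2 1.42.0 and other scalings and filters. No sequence of Aqp4 is printed, and some listed or similar genes are not reported here.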

Additional observations from a re-analysis of the deposited data

Results flagged for a closer look

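In 3 pairs of aquaporin and class, the P14 library lay on one side of all other cells and both P28 libraries on the other side, and the difference between ages was not tested. *Aqp1* in fibroblast-like cells stood at 2.01 times the level of all other cells at P14 [0.990–3.73, from 12 UMIs], and at 0.286 [0.155–0.485] and 0.321 [0.191–0.508] times in P28 replicates 1 and 2. *Aqp1* in B cell-like cells had 0 UMIs at P14, with an upper limit of 2.77 times the level of all other cells, and stood at 9.82 [5.44–16.4] and 10.1 [6.35–15.4] times at P28, where 15 of 15 and 16 of 23 UMIs lay in cells with *Alas2*. *Aqp11* in DC/PC-like cells stood at 0.367 times [0.283–0.468] at P14 and at 1.08 [0.802–1.43] and 1.64 [1.05–2.45] times at P28, although its own level was 148, 148 and 147 CPM. The reference of all other cells held 127, 61.9 and 50.8 CPM outside OHC-like cells, and OHC-like cells are part of the reference for DC/PC-like cells.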

How the results depend on the processing

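Of the 28 called pairs of aquaporin and class, 19 kept their call in every alternative that could be fitted, 4 of the 6 higher ones among them, and 9 lost it in at least 1, while 9 uncalled pairs were called in at least 1. Against 6 higher and 22 lower pairs, there were 5 and 20 with at most 3000 genes and 15000 UMIs or with at most 30% mitochondrial UMIs, 7 and 23 without the highest doublet scores, 5 and 21 with DESeq2 and 8 and 24 with no filter on low counts. The requirement of 10 UMIs in every sum left 8 pairs with a value, of which 3 were higher and 1 lower. Without the block by library, which pairs the 2 sums of 1 library and is not a pairing of replicates, there were 5 higher and 19 lower. Leaving out 1 library gave 5 to 7 higher and 18 to 24 lower. The call of *Aqp1* in RM-like cells was lost at the 10 UMI limit (1.27, adjusted p = 0.138), and that in B cell-like cells with DESeq2 (2.32, adjusted p = 0.05), without the block (2.88, 0.0517) and without P28 replicate 1 (2.05, 0.0619) or 2 (1.99, 0.114), and without cells that had *Alas2* (0.47, 0.735). *Aqp5* in RM-like cells lost its lower call in 7 alternatives. *Aqp5* in ISC/HeC/OSC-like cells turned to 0.49 with P28 cluster 18 in the class. *Aqp11* in the same class, at 0.02, lay at −0.04 at resolution 2 and without the highest doublet scores, −0.10 against named classes only, −0.01 with upper-quartile scaling, −0.06 with no filter, −0.15 at 10 UMIs and −0.36 without the block, and from −0.27 to 0.50 when 1 library was left out (adjusted p = 1.1e-05 without P14). In DC/PC-like cells it turned from −0.18 to 0.40 without P14, with a lowest value of −0.60 without P28 replicate 2. The number of classes with *Aqp1* above at P14 fell from 3 to 1 at resolution 2, without the highest doublet scores, in CPM with haemoglobin, mitochondrial and ribosomal protein genes left out, and in thinned cells. The number with *Aqp1* below went from 1 to 0 with at most 3000 genes and with at most 30% mitochondrial UMIs, where no P28 B cell-like class existed to be compared, and in thinned cells, and that of *Aqp4* from 2 to 0 with at most 3000 genes, without the highest doublet scores and in thinned cells. The other causes were not tested. DC/PC-like and B cell-like cells could not be tested at 3000 genes, nor B cell-like cells at 30%. With 1 P14 library, age and library cannot be told apart, and P14 levels of *Aqp1* rest on few UMIs.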

Other observations

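Clusters outside the named classes also held aquaporin UMIs. P14 cluster 17 (27 cells), which was led by myelin genes such as *Mbp*, *Mobp* and *Mog* and was left unnamed, held 267 CPM of *Aqp4* [163–412] from 20 UMIs in 9 cells, with 827 CPM of *Gfap*, the intermediate filament of astrocytes, and 1280 of *Mog*. P28 cluster 16, led by *Dnase1*, *Ptgds*, *Otos* and *Kcne1*, had 0 *Aqp4* UMIs in 71 cells of replicate 1 but 127 CPM [90.9–172] in replicate 2, from 41 UMIs in 5 of 167 cells. *Kcne1*, a potassium channel subunit of the stria vascularis, was at 0 CPM there in replicate 1 and at 426 in replicate 2. The bone-like cluster at P14 held 59.3 CPM of *Aqp1* from 9 UMIs in 4 cells.

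Of the aquaporins that are not members, *Aqp8* had 9 of its 14 UMIs in IHC-like cells, 2 of them at P14 and 4 and 3 at P28. *Aqp2* had 10 of its 31 UMIs in OHC-like cells, 7 in IPhC/IB-like cells and 9 in unnamed clusters.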
